A study of Eutrema salsugineum with 41 samples.

Results

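The small scaffolds of the E. salsugineum v1.0 assembly, the sequences named as scaffolds on which no read of the 6 ChIP-seq libraries ended at or beyond 1 Mb, held 6977 windows of 1000 bp on 606 scaffolds. They made up 2.87% of the 243166 windows on all 630 scaffolds, and the chloroplast sequence was left out. The other 236189 windows lay on 24 scaffolds of 1 Mb or more. The libraries were an input and an H3K9me2 library of wild type, and H3K9me2 libraries of the T3 plants AtCMT3-L1T3 and AtCMT3-L2T3 and the T5 plants AtCMT3-L1T5 and AtCMT3-L2T5. Values of these 4 plants are given in that order. All plants were of the Shandong ecotype and gave leaf tissue, which according to the methods was cauline leaf of individual plants. The AtCMT3 plants carried the genomic sequence of A. thaliana CMT3 with its native promoter, introduced by floral dip. L1 and L2 were separate transformed lineages, and T3 was the earlier and T5 the later generation. Each plant gave 1 H3K9me2 library and the only input was that of wild type, so a difference between plants had no replicate check, and plant, lineage and library cannot be told apart.

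H3K9me2 is a histone modification of plant heterochromatin, where transposons and other repeats are held silent. The DNA methyltransferase CMT3 binds this mark and methylates cytosines in the CHG context, which in turn recruits the enzymes that place the mark. E. salsugineum has lost its own CMT3, and the H3K9me2 libraries were made to see whether the mark follows the methylation that the transgene adds. Small scaffolds are pieces of an assembly that could not be joined to longer sequences, often because repeats lie at their ends. A read that aligns to several places is dropped when only unique alignments are kept, so a stretch of repeated DNA can be present in the plant and hold no read.

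The 606 small scaffolds added up to 6.67 Mb and the 24 large ones to 236 Mb. A scaffold's length was taken as the end of its last read, so it is a lower limit, and a scaffold without any read was not counted. The small scaffolds ran from 148 to 629926 bp with a median of 5037 bp (quartiles 3414.5 and 8171.5). There was a gap in length between the groups, since the longest small scaffold, scaffold_25, measured 629926 bp and the shortest large one, scaffold_24, 1752963 bp. Under 10 kb lay 502 scaffolds, or 82.8%. The 11 scaffolds of 50 kb or more held 41.4% of the summed length and 2767 windows. All small scaffolds ended in a window shorter than 1000 bp.

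The libraries held 10880290 reads in input, 4494275 in wild-type H3K9me2, 15369069 in AtCMT3-L1T3, 7755217 in AtCMT3-L2T3, 10749397 in AtCMT3-L1T5 and 18722786 in AtCMT3-L2T5. Wild type was thus the smallest library and AtCMT3-L2T5, at 4.17 times its reads, the largest. The read names placed input, AtCMT3-L1T5 and AtCMT3-L2T5 on the same flow cell. Wild type shared another flow cell with 7458644 of the reads of AtCMT3-L1T3, and AtCMT3-L2T3 was on a flow cell of its own. Reads were counted by midpoint, and a level is the number of reads per kb for every 1000000 in the library. For windows, RPM stands for reads per 1000000 in the library. Intervals are 95% intervals that cover counting error only.

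Unique reads left more of the small scaffolds without coverage than of the large ones. In input 5348 of the 6977 small-scaffold windows held a read, or 76.7% (Clopper-Pearson 75.6 to 77.6), against 96.9% (96.8 to 97.0) of the windows on large scaffolds. The difference was of the same kind in all 6 libraries, with 75.3% to 78.5% on small and 95.3% to 97.2% on large scaffolds. Per base it was wider in input, whose reads covered 41.5% of the bases of small and 81.2% of those of large scaffolds. Wild-type H3K9me2 covered 36.3% and 50.5%, and AtCMT3-L2T5 covered 46.0% and 81.5%. The gain in covered bases of a library with 4.17 times the reads of wild type was thus smaller on small than on large scaffolds.

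**Figure D1:**
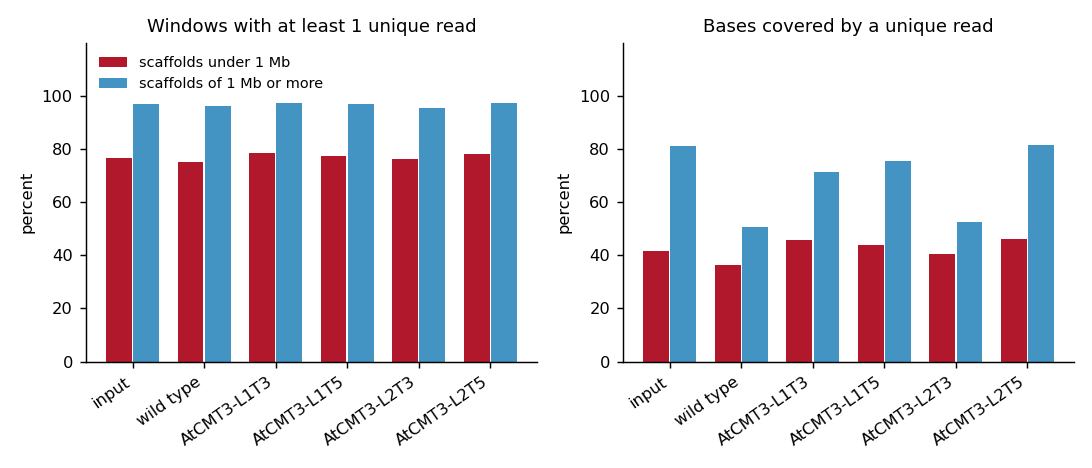
Share of 1000 bp windows with at least 1 unique read (left, percent) and share of bases covered by a unique read (right, percent) in each of the 6 ChIP-seq libraries, for scaffolds under 1 Mb and scaffolds of 1 Mb or more. The bars of small scaffolds stay between 75.3% and 78.5% of windows and between 36.3% and 46.0% of bases, below the large scaffolds in every library.

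Windows without a read in any library were more frequent on small scaffolds, and many lay on a few of the longer ones. There were 1418 of them (20.3%), against 5821 (2.46%) on large scaffolds. They lay on 269 small scaffolds, and 5 of these held 44.6% of them. On large scaffolds the 5 with the most held 46.4%. The longest small scaffold, scaffold_25, had only 39 in 630 windows. On scaffold_31 no library had a read in 162 of 354 windows, on scaffold_44 in 135 of 168, on scaffold_123 in 130 of 138, on scaffold_39 in 109 of 150 and on scaffold_28 in 96 of 366. By contrast, 337 of the 606 small scaffolds (55.6%) had no such window. The share of windows without a read was 15.2% for lengths under 2 kb, 10.6% for 2 to 5 kb, 11.4% for 5 to 10 kb, 16.4% for 10 to 50 kb and 31.4% at 50 kb or more.

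Where small scaffolds were covered, the input was uneven. Of the 6977 windows, 1629 (23.3%) held no input read, 853 (12.2%) held 1 to 9 and 4495 (64.4%) held 10 or more. On large scaffolds the shares were 3.12%, 4.13% and 92.8%. The median window held 2.11 RPM of input on small and 3.86 on large scaffolds, and the 95th percentile was 16.8 against 7.81. Small scaffolds thus had both more empty and more dense windows, while their mean input level of 4.25 (4.23 to 4.26) was only 1.05 times the 4.06 of large scaffolds.

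The densest windows carried much of the input. Only 376 windows (5.39%) exceeded 16 RPM of input, and they held 34.9% of the input reads of all small scaffolds and lay on 201 of them. On large scaffolds 1104 windows (0.467%) were that dense and held 2.77% of the input reads. The shortest scaffolds had the highest input, with a level of 14.7 under 2 kb, 6.78 at 2 to 5 kb, 6.05 at 5 to 10 kb, 3.96 at 10 to 50 kb and 2.45 at 50 kb or more. Within 1 kb of an end the input was also higher, at 7.70 on small scaffolds, where it was 1.80 at 10 to 50 kb and 2.44 beyond 50 kb. Distance and scaffold length cannot be told apart there. On large scaffolds these levels were 5.02 (48 windows), 3.75 and 4.06, with 3.47 at 1 to 2 kb, so no steady fall from the end was seen.

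With reads pooled over scaffolds, H3K9me2 was higher relative to input on small than on large scaffolds in each of the 5 H3K9me2 libraries. Taken scaffold by scaffold, the median in AtCMT3-L2T5 was lower on small than on large scaffolds. The level on small scaffolds was 6.89 in wild type, 6.58 in AtCMT3-L1T3, 7.08 in AtCMT3-L2T3, 5.77 in AtCMT3-L1T5 and 5.32 in AtCMT3-L2T5, where input had 4.25. Over input these levels were 1.62 (1.61 to 1.63) in wild type, 1.55 (1.54 to 1.56), 1.67 (1.66 to 1.68), 1.36 (1.35 to 1.36) and 1.25 (1.25 to 1.26). On large scaffolds the ratios lay between 0.984 and 0.999, close to 1 by construction, because these scaffolds held 94.3% to 95.9% of the reads of each library.

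The ratio of small to large scaffolds does not depend on how libraries are scaled. It was 1.65 (1.64 to 1.66) in wild type, 1.56 (1.55 to 1.56) in AtCMT3-L1T3, 1.68 (1.67 to 1.69) in AtCMT3-L2T3, 1.37 (1.36 to 1.38) in AtCMT3-L1T5 and 1.25 (1.25 to 1.26) in AtCMT3-L2T5. The same input library enters each of these 5 values. As medians over scaffolds, of which 489 small and 24 large ones had at least 100 input reads, the ratios over input were 1.51 on small and 1.17 on large scaffolds in wild type, 1.40 and 1.19 in AtCMT3-L1T3, 1.42 and 1.13 in AtCMT3-L2T3, 1.139 and 1.102 in AtCMT3-L1T5, and 0.982 and 1.13 in AtCMT3-L2T5. Small over large was then 1.29, 1.18, 1.26, 1.03 and 0.866, so AtCMT3-L1T5 was nearly level and the direction turned in AtCMT3-L2T5, where 46.8% of the small scaffolds were above input.

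The ratios of single small scaffolds ran over a wider range than those of the large ones. A small scaffold holds far fewer windows than a large one, so the width of this range is in part set by size. Over single windows with at least 10 input reads, the range was not wider on small scaffolds. The 5th and 95th percentiles in wild type were 0.288 and 5.43 on small and 0.104 and 5.12 on large scaffolds. Of the 606, 489 had at least 100 input reads, and their wild-type H3K9me2 over input ran from 0.119 to 9.89 with a median of 1.51 (quartiles 1.12 and 1.80). The 24 large scaffolds ran from 0.319 to 1.99 with a median of 1.17. On 81 small scaffolds the ratio was above the highest large scaffold and on 11 it was below the lowest, while 397 lay within the range of the large ones. The counting interval lay above 1 on 339 small scaffolds and below 1 on 45. In all 5 H3K9me2 libraries the ratio was above 1 on 210 of the 489 and below 1 on 36. Of the 24 large scaffolds, the same 13 (54.2%) were above 1 in every library. A ratio above 1 in all 5 libraries was thus not more frequent on small scaffolds. That count cannot exceed the share of AtCMT3-L2T5, where 46.8% of the small scaffolds were above 1. The share was 82.0% in wild type, 86.3% in AtCMT3-L1T3, 88.8% in AtCMT3-L2T3 and 74.8% in AtCMT3-L1T5. In each library except AtCMT3-L2T5 it was thus higher than on large scaffolds.

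**Figure D2:**
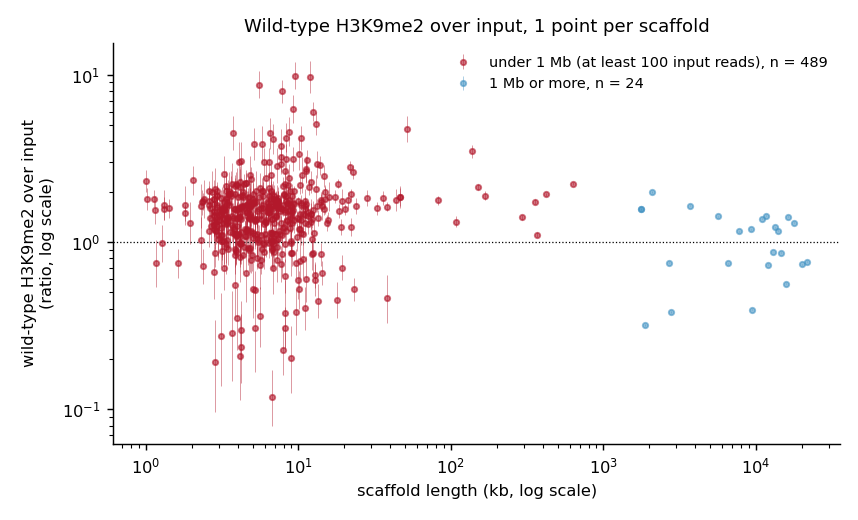
Wild-type H3K9me2 over input (ratio of reads relative to library size, log scale) against scaffold length (kb, log scale) for the 489 small scaffolds with at least 100 input reads and the 24 scaffolds of 1 Mb or more. Each point is a scaffold, the bars are 95% counting intervals and the dotted line marks equality with input. Small scaffolds run from 0.119 to 9.89 and large ones from 0.319 to 1.99.

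The 117 scaffolds with fewer than 100 input reads held 514 windows (7.37%) and 1.78% of the input reads of small scaffolds. They measured 148 to 13029 bp with a median of 3392 bp. Pooled, their H3K9me2 over input was 2.44 in wild type, 2.64 in AtCMT3-L1T3, 2.61 in AtCMT3-L2T3, 2.20 in AtCMT3-L1T5 and 2.19 in AtCMT3-L2T5. Because they were set apart by few input reads, which are the denominator, these ratios are in part set by the choice. On scaffold_700, of 1802 bp, the only read in the 6 libraries was 1 of AtCMT3-L1T3.

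The 3 longest small scaffolds differed among themselves. The longest, scaffold_25 (630 windows), held 18690 reads in input and 17188 in wild-type H3K9me2, with 65929, 36929, 40752 and 74966 in the AtCMT3 plants. Its ratio over input was 2.23 (2.18 to 2.27) in wild type and between 2.21 and 2.77 in the AtCMT3 plants. On scaffold_26 (422193 bp) it was 1.93 (1.88 to 1.97) in wild type and 2.22, 2.28, 1.86 and 2.10 in the plants. Both lay near or above the highest large scaffold, while scaffold_28 (365062 bp) had 1.11 (1.07 to 1.14) in wild type and 1.30, 1.38, 1.30 and 1.38 in the plants. Of the 3 shortest large scaffolds, scaffold_22 had 0.319 in wild type, the lowest value of the 24, and scaffold_23 and scaffold_24 had 1.57 each.

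The highest ratios were on scaffolds of about 5 to 12 kb with few input reads. On scaffold_168 (9442 bp) 138 input reads stood against 564 in wild type, 1062 in AtCMT3-L1T3, 848 in AtCMT3-L2T3, 696 in AtCMT3-L1T5 and 1128 in AtCMT3-L2T5. Its ratio over input was 9.89 (8.20 to 12.0) in wild type and 5.45, 8.62, 5.10 and 4.75 in the plants. The next were scaffold_127 with 9.66 (7.77 to 12.1), scaffold_395 with 8.72 (7.22 to 10.6), scaffold_246 with 7.95 (6.80 to 9.33) and scaffold_174 with 6.26 (5.17 to 7.61) in wild type. In AtCMT3-L1T3, AtCMT3-L1T5 and AtCMT3-L2T5 all 5 scaffolds had lower ratios than in wild type, at 4.48 to 6.06. These scaffolds were picked for the height of their wild-type ratio, so lower values in the other libraries are in part set by the choice.

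Along these scaffolds the mark was not even. On scaffold_246 (7796 bp) the window from 1001 to 2000 held 42 reads in input and 4 in wild-type H3K9me2, while the window from 6001 to 7000 held 20 and 205. From 3001 to its end, 5 touching windows were enriched in wild type. On scaffold_395 (5474 bp) all 6 windows were enriched in wild type, with 17 to 36 input reads and 68 to 125 wild-type reads in its 5 full windows. On scaffold_168 the window from 4001 to 5000 was low, with 18 reads in input and 17 in wild type, between neighbours with 81 and 111 wild-type reads.

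The lowest ratios were on scaffold_292 (0.119, 0.0796 to 0.172), scaffold_538 (0.191), scaffold_187 (0.203), scaffold_539 (0.209) and scaffold_240 (0.228). On scaffold_292 (6681 bp) 610 input reads stood against 30 in wild type, 128 in AtCMT3-L1T3, 40 in AtCMT3-L2T3, 126 in AtCMT3-L1T5 and 188 in AtCMT3-L2T5. Each of the 5 libraries stayed below 0.21 of input there, and input itself was uneven, with 297 reads in the window from 1 to 1000 and 33 in that from 5001 to 6000. None of these 5 scaffolds held an enriched window in any library.

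Window by window, small scaffolds had fewer windows below input than large ones and more above it. Among the 4495 small-scaffold windows with at least 10 input reads, the median wild-type ratio over input was 1.48 (quartiles 0.952 and 2.29), against 0.550 (0.263 and 1.68) on large scaffolds. A ratio above 1 was found in 72.7% of the small-scaffold and 35.9% of the large-scaffold windows. On small scaffolds 10.8% of windows were under 0.5, and on large scaffolds 47.1%. Ratios of 2-fold to 4-fold were found in 21.1% and 13.2%, and of 4-fold or more in 9.63% and 7.97%. The 95th percentiles, 5.43 and 5.12, were closer.

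The same held in the AtCMT3 plants. The median window ratio on small scaffolds was 1.61 in AtCMT3-L1T3, 1.51 in AtCMT3-L2T3, 1.28 in AtCMT3-L1T5 and 1.22 in AtCMT3-L2T5, where large scaffolds had 0.528, 0.390, 0.664 and 0.624. The share of large-scaffold windows under 0.25 of input differed between libraries, at 23.4% in wild type, 31.6% in AtCMT3-L1T3, 41.9% in AtCMT3-L2T3, 10.6% in AtCMT3-L1T5 and 16.4% in AtCMT3-L2T5. The plants with the smallest shares, AtCMT3-L1T5 and AtCMT3-L2T5, were also those with the lowest H3K9me2 over input on small scaffolds and those on the flow cell of the input. The part of this difference between libraries in the results was not tested.

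Over all windows, strong enrichment was no more frequent on small scaffolds than elsewhere in wild type, and over windows with a read it was more frequent. A window counted as enriched when its reads numbered 10 or more and reached 4-fold over input after scaling to library size. In wild type 582 small-scaffold windows (8.34%, 7.70 to 9.02) were enriched, and over all windows of the genome the share was 8.75%. In AtCMT3-L1T3 there were 860 (12.3%), where all windows had 10.3%. In AtCMT3-L1T5 there were 603 (8.64%) beside 7.82%, in AtCMT3-L2T3 874 (12.5%) beside 11.1% and in AtCMT3-L2T5 701 of 6977 beside 8.86%. Empty windows cannot be enriched, and they made up 20.3% of the windows on small and 2.46% of those on large scaffolds. Over the windows with a read in any library, the shares in wild type were 10.5% (9.68 to 11.3) of 5559 on small and 8.98% (8.86 to 9.10) of 230368 on large scaffolds. Over windows with at least 10 input reads, 9.63% on small and 7.97% on large scaffolds were at 4-fold or more, so the wild-type comparison turned with the windows counted. In the AtCMT3 plants the share stayed higher on small scaffolds, at 15.5%, 15.7%, 10.8% and 12.6% of the windows with a read, where all windows with a read had 10.6%, 11.5%, 8.06% and 9.13%. The minimum of 10 reads is easier to reach in a larger library, so the counts of different plants are not comparable with each other.

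Enriched windows were spread over 134 of the 606 scaffolds in wild type, and 5 scaffolds held 40.4% of them. On scaffold_25, 110 of 630 windows were enriched, in 76 separate runs of which the longest was 6 kb. On scaffold_26, 73 of 423 were enriched, in 50 runs of up to 5 kb. On 5 scaffolds every window was enriched. By length, 2.17% of the windows were enriched on scaffolds under 2 kb, 5.94% at 2 to 5 kb, 5.93% at 5 to 10 kb, 9.95% at 10 to 50 kb and 9.87% at 50 kb or more.

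The enriched window with the highest wild-type level lay at scaffold_123:136001-137000 (positions of the v1.0 assembly), on a scaffold where 130 of 138 windows were empty. It held 248 reads in input, 575 in wild type, 865 in AtCMT3-L1T3, 731 in AtCMT3-L2T3, 717 in AtCMT3-L1T5 and 852 in AtCMT3-L2T5. The levels were 22.8 in input and 128, 56.3, 94.3, 66.7 and 45.5 in these H3K9me2 libraries, and wild type was at 5.61 (4.83 to 6.54) of input. The read counts of the 5 H3K9me2 libraries thus differed far less than the depths of the libraries. On scaffold_39, 3 touching windows from 140001 to 143000 were among the 10 highest, with 177, 216 and 240 wild-type reads over 49, 48 and 41 in input. They belonged to an enriched run of 7 kb in wild type and AtCMT3-L2T3, where 109 of the scaffold's 150 windows were empty. On scaffold_25 the highest window, from 427001 to 428000, held 169 wild-type reads over 18 in input, a ratio of 22.7 (14.0 to 39.3).

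How far H3K9me2 exceeded input on small scaffolds changed with the input of the window. In windows with up to 1 RPM of input, but not 0, wild type was at 3.42 of input, and the value was 3.01 at 1 to 2, 2.08 at 2 to 4, 1.25 at 4 to 8, 1.38 at 8 to 16 and 1.55 above 16. On large scaffolds the same classes had 4.91, 4.21, 1.62, 0.575, 0.365 and 0.259. The input sets both the class and the denominator, so a fall from class to class is in part built in. Above 4 RPM of input, large scaffolds were below input in all 5 libraries. Small ones stayed above it there except in AtCMT3-L2T5, which was at 0.952 of input at 8 to 16 RPM and at 0.801 above 16.

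**Figure D3:**
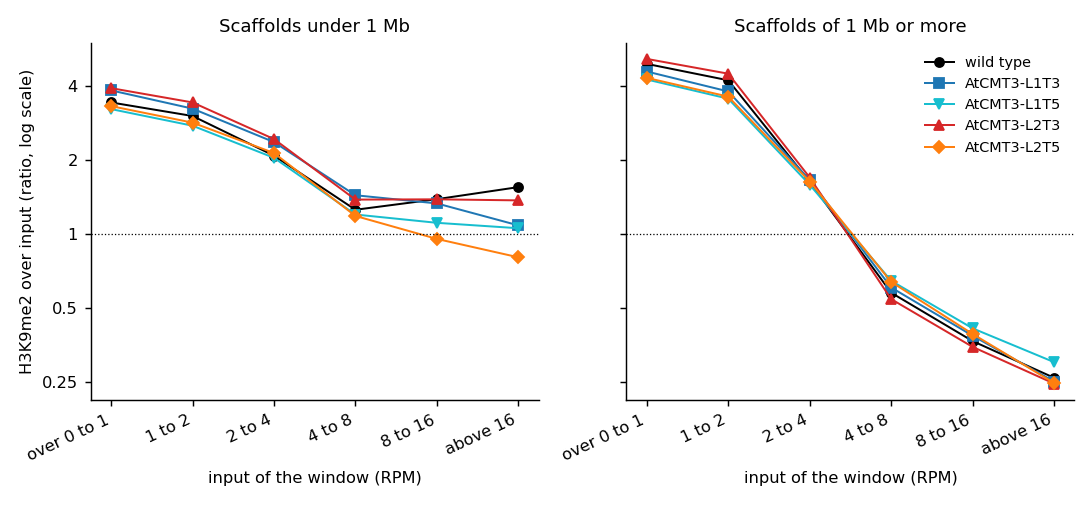
H3K9me2 over input (ratio, log scale) by the input of the window in RPM, for windows on scaffolds under 1 Mb (left) and of 1 Mb or more (right). Each line is a library. On large scaffolds all libraries fall to between 0.245 and 0.300 in the densest class, and on small scaffolds they lie between 0.801 and 1.55 and are farther apart from each other.

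In the densest class the libraries also parted from each other. Above 16 RPM of input, H3K9me2 over input on small scaffolds was 1.55 in wild type, 1.08 in AtCMT3-L1T3, 1.37 in AtCMT3-L2T3, 1.05 in AtCMT3-L1T5 and 0.801 in AtCMT3-L2T5. On large scaffolds the 5 libraries lay between 0.245 and 0.300, with wild type at 0.259. On small scaffolds the smallest library, wild type, thus had the highest ratio and the largest, AtCMT3-L2T5, the lowest.

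The raw reads of these 376 windows did not grow in proportion to depth. The mean was 286 reads per window in input, 183 in wild type, 437 in AtCMT3-L1T3, 278 in AtCMT3-L2T3, 297 in AtCMT3-L1T5 and 394 in AtCMT3-L2T5. Relative to wild type these were 2.39, 1.52, 1.63 and 2.16 times as many reads in the plants, while their libraries held 3.42, 1.73, 2.39 and 4.17 times as many. In the 1104 large-scaffold windows of the same input class the ratios of raw reads were 3.30, 1.63, 2.77 and 3.97. Input and AtCMT3-L1T5, which held nearly the same number of reads, also had nearly the same mean here.

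**Figure D4:**
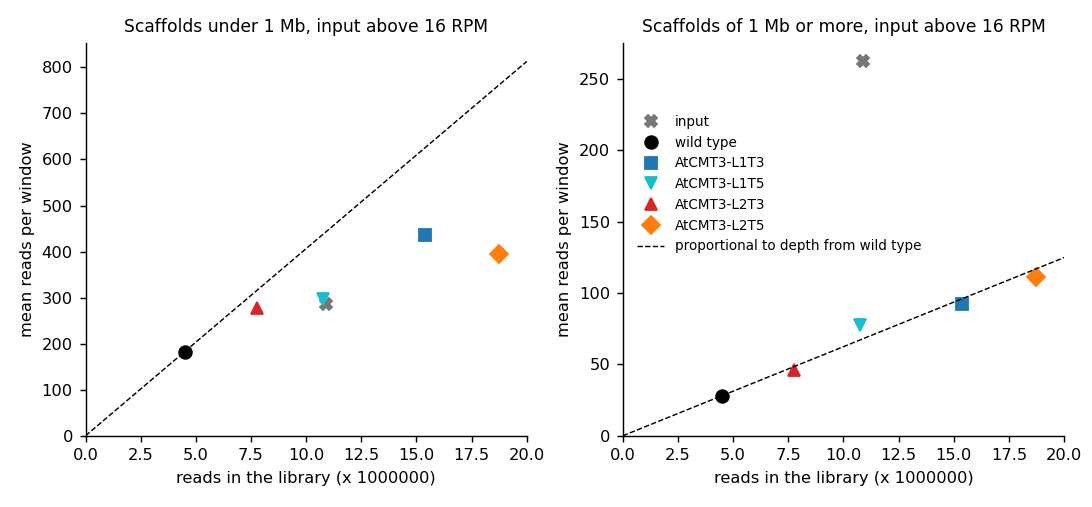
Mean reads per window in windows above 16 RPM of input against the number of reads in the library (in units of 1000000), for 376 windows on scaffolds under 1 Mb (left) and 1104 on scaffolds of 1 Mb or more (right). Each point is a library, and the dashed line is proportional to depth and drawn through wild type. On small scaffolds AtCMT3-L2T5, at 394 reads, and AtCMT3-L1T3, at 437, lie well under the line, and on large scaffolds the H3K9me2 libraries follow it.

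No 2 reads of a library shared their 5′ position and strand, since duplicated reads had been removed, so each position of a strand could give at most 1 read. In the densest small-scaffold windows wild-type reads occupied 9.39% of the strand positions and the reads of AtCMT3-L1T3 22.4%. Of the positions occupied in wild type, 88.2% were also occupied in AtCMT3-L1T3, 70.0% in AtCMT3-L2T3, 72.6% in AtCMT3-L1T5, 84.3% in AtCMT3-L2T5 and 68.0% in input. In the large-scaffold windows of the same class the shares were 31.4%, 23.3%, 27.5%, 33.4% and 28.9%. The positions occupied were also fewer there, at 1.40% in wild type and between 2.28% in AtCMT3-L2T3 and 5.55% in AtCMT3-L2T5, where the plants had 14.3% to 22.4% on small scaffolds. Divided by the share of all positions that the plant occupied, the shared positions were at 3.93, 4.89, 4.75 and 4.16 times that share on small and at 6.80, 10.2, 7.11 and 6.02 times on large scaffolds. Shared positions cannot exceed all positions of wild type, so this quotient has a ceiling that falls as occupancy rises. At the occupancy of the plants on small scaffolds, the ceiling lay below their values on large scaffolds. That the plants had lower quotients on small than on large scaffolds was thus fixed by occupancy. For input, which occupied 14.7% of positions on small and 13.0% on large scaffolds, the quotients were 4.63 and 2.22. Whether the limit of 1 read per position accounts for the flat read counts was not tested, since the removed reads were not used here.

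Relative to wild type, 3 of the 4 AtCMT3 plants were lower and AtCMT3-L2T3 was slightly higher on small scaffolds with reads pooled. The direction held for AtCMT3-L1T5 and AtCMT3-L2T5 under each alternative run, some of which could hardly move the ratio. For the T3 plants the direction did not hold throughout. Both T5 libraries were on the flow cell of the input and neither T3 library was, so generation and flow cell cannot be told apart. The level was 0.954 (0.9497 to 0.959) of wild type in AtCMT3-L1T3, 1.03 (1.02 to 1.03) in AtCMT3-L2T3, 0.837 (0.832 to 0.841) in AtCMT3-L1T5 and 0.772 (0.768 to 0.776) in AtCMT3-L2T5, with a median of 0.896 over the 4 plants (SD 0.115). As medians over scaffolds AtCMT3-L1T3 turned to 1.04 and AtCMT3-L2T3 to 0.998, and on scaffolds under 100 kb AtCMT3-L2T3 was at 0.975. On large scaffolds each plant was at 1.01 or 1.02 of wild type, again near 1 by construction. All 4 ratios share the wild-type library, and with 1 library against 4 the smallest p an exact permutation test could give is 0.2, so none was run.

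The lower levels were mainly in the windows with much input. In the 929 windows above 8 RPM of input, the plants were at 0.792, 0.924, 0.723 and 0.579 of wild type. In the other 6048 windows they were at 1.13 in AtCMT3-L1T3, 1.14 in AtCMT3-L2T3, 0.958 in AtCMT3-L1T5 and 0.978 in AtCMT3-L2T5. The median over the plants was then 1.05, so its direction turned. This limit was chosen after seeing the data. On large scaffolds the windows above 8 had 1.04, 0.947, 1.13 and 1.05.

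Scaffold by scaffold the ratio to wild type was also lowest at high input, but in AtCMT3-L1T5 and AtCMT3-L2T5 its median was below 1 at low input too. On the 398 small scaffolds with at least 100 reads in both wild type and input, the counting interval of the ratio to wild type lay below 1 on 141 in AtCMT3-L1T3, 84 in AtCMT3-L2T3, 231 in AtCMT3-L1T5 and 278 in AtCMT3-L2T5. It lay above 1 on 111, 64, 10 and 17. Over the 489 small scaffolds with at least 100 input reads, the ratio itself was above 1 on 56.2%, 49.9%, 21.1% and 23.3%. On the 24 large scaffolds these shares were 54.2%, 45.8%, 58.3% and 66.7%. The T3 plants were thus near the large-scaffold shares, and AtCMT3-L1T5 and AtCMT3-L2T5 were below them. On the 114 of these scaffolds with an input level of up to 4, the median ratios were 1.08, 1.05, 0.898 and 0.901. On the 46 with a level above 16 they were 0.660, 0.856, 0.662 and 0.513.

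**Figure D5:**
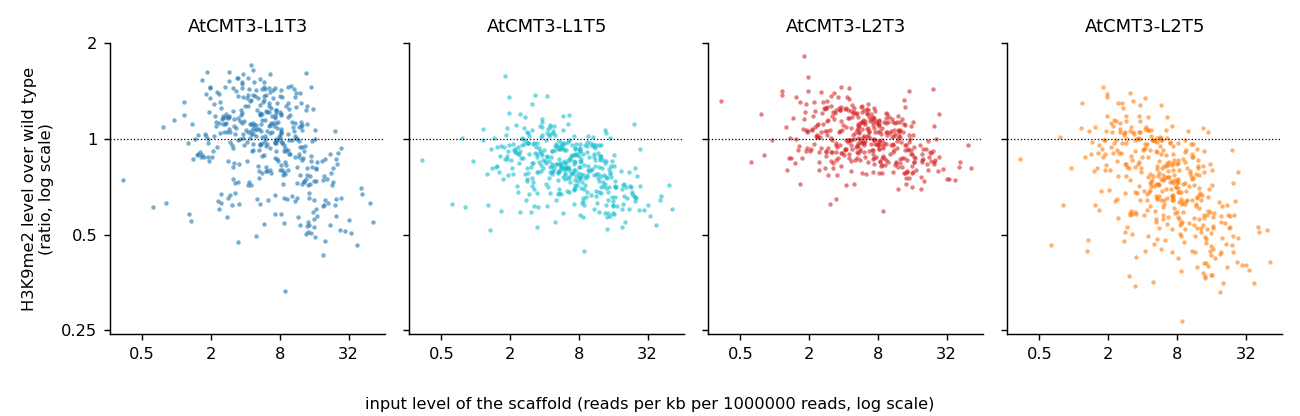
H3K9me2 level of each AtCMT3 plant over wild type (ratio, log scale) against the input level of the scaffold (reads per kb per 1000000 reads, log scale) for the 398 small scaffolds with at least 100 reads in input and in wild type. Each point is a scaffold and the dotted line marks equality with wild type. The points fall with the input level, least in AtCMT3-L2T3, whose median is 0.856 above an input level of 16, and most in AtCMT3-L2T5, whose median there is 0.513.

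Of the 398 scaffolds with at least 100 reads in both input and wild type, the 3 with the highest median ratio over the plants had little input. Some scaffolds with fewer wild-type reads had higher medians, such as scaffold_538 with 2.03 over 12 wild-type reads and scaffold_240 with 1.51 over 40. On scaffold_109 (8943 bp, input level 1.79) the reads numbered 174 in input, 105 in wild type, 499 in AtCMT3-L1T3, 331 in AtCMT3-L2T3, 398 in AtCMT3-L1T5 and 638 in AtCMT3-L2T5. The ratio to wild type was 1.39 (1.12 to 1.73), 1.83 (1.46 to 2.30), 1.58 (1.28 to 1.98) and 1.46 (1.18 to 1.81), above 1 in 4 of 4 plants. On scaffold_131 and scaffold_110 the medians were 1.40 each, also with 4 of 4 plants above 1. As all 3 were picked for this ratio, a low count in the shared wild-type library is part of what put them there.

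The 3 of these 398 with the lowest median ratio were short, and their read counts differed far less between libraries than the depths. On scaffold_867 (2022 bp) the reads numbered 196 in input, 189 in wild type, 215 in AtCMT3-L1T3, 193 in AtCMT3-L2T3, 201 in AtCMT3-L1T5 and 210 in AtCMT3-L2T5. Nearly all lay in its window from 1 to 1000. Scaled to library size the ratio to wild type was 0.333, 0.592, 0.445 and 0.267. On scaffold_797 the H3K9me2 libraries held 587 to 863 reads and on scaffold_529 310 to 490, and their median ratios to wild type were 0.479 and 0.499.

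Such flat counts were found on a minority of the small scaffolds. Over the 489 scaffolds with at least 100 input reads, the highest of the 5 H3K9me2 read counts was 3.76 times the lowest in the median, where the libraries differ 4.17-fold in depth. It was under 2 times the lowest on 31 scaffolds, and on the 24 large scaffolds it lay between 3.81 and 5.10. The scaffolds with the most input per kb were scaffold_974 (1138 bp, level 52.2), scaffold_863 (2814 bp, 49.0), scaffold_517 (42.2), scaffold_937 (41.1) and scaffold_529 (37.6). On scaffold_974 the reads numbered 646 in input and 486, 910, 678, 699 and 828 in the H3K9me2 libraries. At the other end, scaffold_63 (51549 bp) had an input level of 0.337, 32 of its 52 windows were empty, and wild type was at 4.74 (3.97 to 5.68) of input. The next lowest were scaffold_121 with 0.598, where wild type was at 0.461 of input, and scaffold_123 with 0.626, where it was at 3.48.

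The library of AtCMT3-L1T3 came from 2 runs on different flow cells, which gives a check on how far runs of 1 library differ on small scaffolds. The run that shared the flow cell of wild type held 7458644 reads and the other 7910425. Relative to their sizes, the ratio of the first to the second was 1.06 over all small-scaffold reads, and its SD over the 489 scaffolds was 0.19 in log2 units. The SD of the ratio to wild type over 398 scaffolds was 0.43 in AtCMT3-L1T3, 0.24 in AtCMT3-L2T3, 0.27 in AtCMT3-L1T5 and 0.46 in AtCMT3-L2T5. The ratio of the runs also moved with input, from a median of 1.02 at an input level of up to 4 to 1.15 above 16. On scaffold_867 the runs held 174 and 41 reads, a ratio of 4.50 and the highest of all scaffolds. Duplicates had been removed over the runs together, so they are not independent at positions that both could fill.

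For changes of single windows, all libraries were thinned to the 4494275 reads of wild type, and a window counted as higher or lower at a 2-fold difference with at least 10 reads in the higher library. In AtCMT3-L1T3, 430 small-scaffold windows (6.16%) were higher and 175 (2.51%) lower, where 5.38% and 4.80% of all 243166 windows were. In AtCMT3-L1T5, 203 (2.91%) were higher and 140 (2.01%) lower, beside 9.16% and 2.53%. In AtCMT3-L2T3, 245 (3.51%) were higher and 88 (1.26%) lower, beside 3.26% and 5.82%. In AtCMT3-L2T5, 261 (3.74%) were higher and 432 (6.19%) lower, beside 6.85% and 3.26%.

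Small scaffolds thus had a smaller share of higher windows than the genome in AtCMT3-L1T5 and AtCMT3-L2T5, and a smaller share of lower windows in AtCMT3-L1T3 and AtCMT3-L2T3. In AtCMT3-L1T5 the share of lower windows was smaller over all windows, but over windows with a read it was 2.52% (2.12 to 2.97) beside 2.61%, a difference within counting error. Over windows with a read the other shares kept their direction. The only share of lower windows above that of the genome was in AtCMT3-L2T5. There, 26.5% of the windows above 8 RPM of input were lower and 3.08% of the others. In AtCMT3-L1T3 these shares were 9.47% and 1.44%, in AtCMT3-L1T5 2.69% and 1.90%, and in AtCMT3-L2T3 0.538% and 1.37%.

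The wild-type excess over input was present along the length of small scaffolds, while AtCMT3-L2T5 had none within 1 kb of an end or on scaffolds under 2 kb. Within 1 kb of an end, H3K9me2 over input was 1.505 in wild type, and it was 1.59 at 2 to 5 kb, 1.91 at 5 to 10 kb, 1.95 at 10 to 50 kb and 1.69 farther in. In AtCMT3-L2T5 it was 0.968 within 1 kb and 1.94 beyond 50 kb, and in AtCMT3-L2T3 1.42 and 2.17. Only long scaffolds have windows far from an end, so distance and length cannot be told apart. By length, wild type was at 1.54 of input under 2 kb, 1.52 at 2 to 5 kb, 1.54 at 5 to 10 kb, 1.64 at 10 to 50 kb and 1.82 at 50 kb or more, and AtCMT3-L2T5 at 0.811, 1.03, 1.05, 1.21 and 1.80. In wild type the large scaffolds were at 1.06 within 1 kb of their ends and 0.983 beyond 50 kb.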

How the data were processed

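For ChIP-seq the authors trimmed reads with Trimmomatic, used Bowtie to align them to the v1.0 assembly of E. salsugineum with up to 2 mismatches, kept unique alignments and dropped duplicates with SAMtools. In the deposited files each read has a line with its start and end, and a score of 255 in every line, which was left aside. Reads were counted by midpoint in windows of 1000 bp, and levels and ratios were scaled to the reads of the library. Ratios have exact binomial intervals and shares Clopper-Pearson intervals, both at 95%, for counting error only. With 1 library per plant no p-value was computed. Scaffolds were named by length, input level, wild-type ratio over input (at least 100 input reads) and ratio to wild type, and windows as the 10 enriched ones with the highest wild-type level. The scaffolds, limits and rules were chosen with earlier results of these data known. Counting and ratios were tested on simulated data. Alternatives were limits of 500 and 100 kb, dropping scaffold_25, thinned libraries, other scales, 500 bp windows, other fold and read minimums, at least 5 input reads per window and medians over scaffolds. Added after seeing the data were dropping windows above 8 RPM of input, medians over scaffolds for each plant over input and shares among windows with a read. Gene positions and sequences of these scaffolds were not used here, so expression of their genes was not analysed. Bisulfite, RNA and H3K9me1 data were not used. Computations ran in Python 3.11.15 with scipy 1.17.1, numpy 2.4.6, pandas 2.3.3 and matplotlib 3.10.9.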

Additional observations from a re-analysis of the deposited data

How the results depend on the processing

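No paired analysis was possible because each plant gave 1 library. The share of small-scaffold windows with an input read was 75.1% with a limit of 500 kb, which drops only scaffold_25, 82.3% with a limit of 100 kb, 74.2% in libraries thinned to the smallest and 68.6% in windows of 500 bp. Wild-type H3K9me2 over input stayed above 1 under each alternative, at 1.58 without scaffold_25, 1.57 under 100 kb, 1.65 with reads on large scaffolds as the scale, 1.51 as the median over scaffolds and 1.81 without the windows above 8 RPM of input. The ratio of small to large scaffolds was 1.61 without scaffold_25, 1.59 under 100 kb, 1.29 as a ratio of medians over scaffolds and 1.68 without the windows above 8 RPM. The median of the AtCMT3 plants over wild type kept its direction under 7 different alternatives (the limit of 500 kb and the removal of scaffold_25 are the same). Thinning draws reads at random and the 2 other scales keep nearly all reads, so these could hardly move it. They gave 0.896, 0.892 and 0.888, beside 0.896 in the main setting. The median turned to 1.05 without the windows above 8 RPM, where AtCMT3-L1T3 was at 1.13. AtCMT3-L1T3 was at 1.04 as a median over scaffolds, and AtCMT3-L2T3 at 0.998 there and 0.975 under 100 kb, so these plants had no settled direction. Small over large scaffolds was 0.866 in AtCMT3-L2T5 as a ratio of medians over scaffolds. The wild-type share of enriched windows on small scaffolds over that of all windows was 0.954, and 1.16 among windows with a read. Enriched wild-type windows numbered 331 of 4345 under 100 kb and 1051 of 13638 in 500 bp windows, beside 582 of 6977 in the main setting. At 2-fold over input there were 1562 of 6977 and at 6-fold 281. Shares over all windows of the genome were not computed at these settings. Counts of enriched windows change with the number of windows and with the fold limit by definition. The cause of the other moves was not tested. Depth limits single windows most in wild type, the smallest library.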

Other observations

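The chloroplast sequence, which belongs to neither group of scaffolds and carries no histones, was at 0.813 of input in wild type, 0.204 in AtCMT3-L1T3, 0.110 in AtCMT3-L2T3 and 0.945 in AtCMT3-L1T5, and AtCMT3-L2T5 lay between these. The libraries of AtCMT3-L1T3 and AtCMT3-L2T3, which had the lowest values there, also had the largest shares of large-scaffold windows under 0.25 of input. AtCMT3-L1T5, which was nearest to input on the chloroplast, had the smallest share. The order did not match throughout, since AtCMT3-L2T5 was below wild type on the chloroplast but had the smaller share, 16.4% against 23.4%.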
